A study of Mus musculus with 11 samples.

Results

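The genes examined here encode machinery that removes maternal mRNA in the early mouse embryo: 7 subunits of the CCR4-NOT deadenylase (*Cnot1*, *Cnot2*, *Cnot3*, *Cnot6*, *Cnot6l*, *Cnot7* and *Cnot8*) and 3 proteins that act with it (*Btg4*, *Zfp36l2* and *Pabpn1l*). They were chosen by name, and all 10 were found by gene identifier among the 54146 genes of every table. RNA-seq was performed on 11 single C57BL/6 embryos at the 8-cell stage (E2.5). The 5 mutants were *Prdm10* Δ/Δ, lacking exon 5 on both alleles after germline deletion with an ACTB-Cre transgene, and the 6 controls were *Prdm10* +/+ or Δ/+ embryos that the labels do not separate. All embryos came from matings between heterozygotes, so each developed from the egg of a *Prdm10* Δ/+ mother, and genotype was called from exon 5 in the embryo's own cDNA. Smart-seq2 libraries, primed with oligo-dT, were made in 2 batches: batch 1 (3 controls, 2 mutants) with 16 cycles of PCR pre-amplification, and batch 2 (3 controls, 3 mutants) with 13.

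An mRNA laid down in the oocyte is usually destroyed in a set order, with loss of its poly(A) tail first and decapping and degradation of the body afterwards. CCR4-NOT shortens the tail with paired nucleases. CNOT1 is the scaffold, CNOT2 and CNOT3 form a module on it, CNOT7 and CNOT8 are alternative CAF1-type nucleases, and CNOT6 and CNOT6L are alternative CCR4-type nucleases. BTG4 brings the nucleases to maternal mRNA during the oocyte-to-embryo transition, ZFP36L2 binds AU-rich elements, and PABPN1L is a poly(A)-binding protein of oocytes that works with BTG4.

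Summed expected counts, the authors' estimates of reads per gene, ranged from 3534735 to 8265840 per library. The 8 genes listed as markers of 8-cell embryos were detected in both groups, with a summed level of 1835 to 3025 TPM (a length-corrected share of all transcripts) in controls and 2756 to 3503 in mutants. Of these stage markers *Klf5* was called higher in mutants, *Klf17* was called lower and 6 did not pass in DESeq2. An unadjusted p under 0.05 was found for 7 of the 8, against 1248 of all 10448 tested genes, and the median log2 fold change was 0.48. Their part in the genotype differences given here was not tested. Transcripts of other cells were higher in batch 2. The summed level of 6 blood cell markers was 19.7 to 154 TPM in batch 2 and 1.24 to 6.49 TPM in batch 1, and the highest value was in control replicate 1. All 6 blood markers were detected in batch 2 and 4 of 6 in batch 1. The summed level of 6 oviduct markers was 46.9 to 74.3 TPM in batch 2 and 32.5 to 45.2 TPM in batch 1. Most of this sum was *Epcam*, with 39.1 of 47.4 TPM on average over all embryos. *Epcam* overlapped between the batches, at 22.1 to 54.4 TPM in batch 2 and 31.7 to 44.5 TPM in batch 1, so the sum does not measure oviduct cells alone. *Ovgp1*, the oviductal glycoprotein, was at 1.45 to 30.1 TPM in batch 2 and at most 0.81 TPM in batch 1. Between the groups the blood marker sum overlapped, at 1.71 to 154 TPM in controls and 1.24 to 50.5 TPM in mutants. Of 8 cumulus cell markers 3 were detected in batch 2 and 2 in batch 1, and mutant replicate 2 held the largest sum, 10.9 TPM. *Prdm10*, read as a check on the labels, was at 11.1 to 24.8 TPM in controls and 4.88 to 8.16 TPM in mutants, without overlap. In normalised read counts, which are not corrected for length, it was at 124 to 381 in controls and 104 to 202 in mutants, with overlap, and its log2 fold change of -0.66 did not pass (DESeq2 adjusted p = 0.215). With effective length as an offset the log2 fold change was -1.29 (DESeq2 adjusted p = 2.95e-05). Its effective length, the mean usable length of its transcripts as estimated by the authors, was 2565 to 3357 bases in controls and 4348 to 5051 bases in mutants. Because genotype was called from *Prdm10* exon 5 in the same cDNA, these values are no independent check on the labels.

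The genes spanned a wide range of levels. Each library was a whole embryo, so in every value that follows fewer cells of a type and less RNA per cell cannot be told apart. Because TPM is corrected for length, it can be compared between genes, as far as the estimate of effective length holds. That of *Cnot6* ran from 1995 to 5662 bases between embryos. *Cnot8* was the most abundant, at 194 ± 49.5 TPM in controls (SD, n = 6). It was followed by *Cnot1* at 103 ± 34.0, *Cnot7* at 87.1 ± 20.4, *Cnot2* at 74.8 ± 15.3 and *Cnot3* at 16.2 ± 7.69 TPM. The other 5 genes were below 10 TPM on average: *Btg4* stood at 5.92 ± 3.06, *Cnot6* at 4.985 ± 1.67, *Zfp36l2* at 4.65 ± 4.02 and *Cnot6l* at 2.42 ± 1.62 TPM. *Pabpn1l* had reads in only 4 control embryos. The step from one gene to the next exceeded their combined SD at 4 places: *Cnot8* over *Cnot1*, *Cnot2* over *Cnot3*, *Cnot3* over *Btg4*, and *Cnot6l* over *Pabpn1l*. The steps from *Cnot1* to *Cnot7* and from *Cnot7* to *Cnot2* did not exceed it, nor did those between *Btg4*, *Cnot6*, *Zfp36l2* and *Cnot6l*. *Cnot2* was above *Cnot3* in 11 of 11 embryos, whereas *Cnot7* was above *Cnot2* in 4 of 11. Among the 22701 genes detected in controls, *Cnot8* lay at percentile 96.5 and *Cnot6l* at percentile 59.4.

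**Figure D1:**
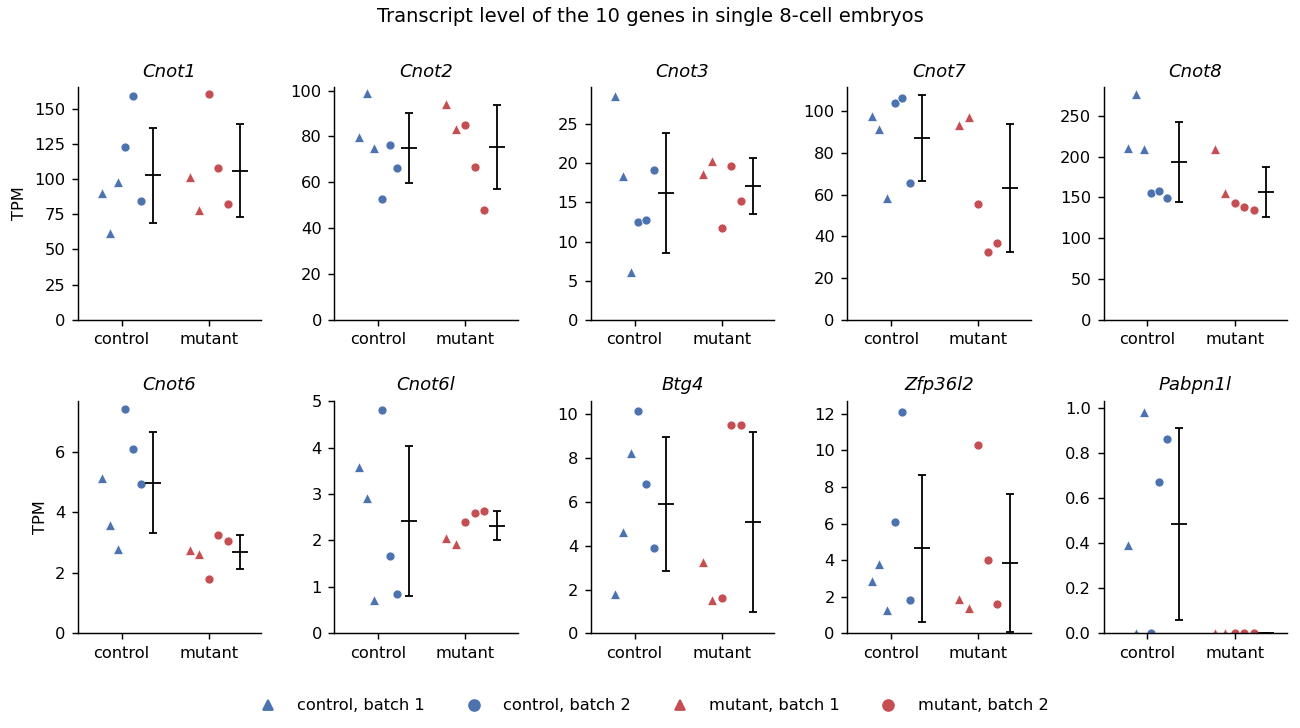
Level of each of the 10 genes in single embryos, in TPM on a linear axis from 0. Points are embryos (triangles batch 1, circles batch 2), and bars give the mean and 1 SD of each group. *Cnot6* is the gene with the clearest shift, from 4.985 TPM on average in controls to 2.69 in mutants.

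The nuclease pairs were unequal. Together the CAF1-type transcripts (*Cnot7* and *Cnot8*) reached 281 ± 52.6 TPM in controls (SD, n = 6), and the CCR4-type transcripts (*Cnot6* and *Cnot6l*) reached 7.405 ± 2.95 TPM. The ratio of these sums was 43.6 ± 19.8 in controls and 45.1 ± 15.1 in mutants (SD, n = 5), and it ranged from 21.3 to 76.5 over all 11 embryos. Within the CAF1-type pair *Cnot8* was above *Cnot7* in 11 of 11 embryos, by 2.43-fold on average (log2 ratio of TPM + 0.1, 1.28 ± 0.53 SD). An exact sign-flip permutation test over embryos gave p = 0.000977, the smallest it can give, and 0.00195 after adjustment over the 2 pairs (two-sided). Within the CCR4-type pair *Cnot6* was above *Cnot6l* in 10 of 11 embryos, by 1.70-fold on average (exact sign-flip permutation test, adjusted p = 0.00488). The exception was mutant replicate 1. This order in the mutants depended on the correction for length. In normalised read counts *Cnot6l* was above *Cnot6* in mutant replicates 1 (70.9 against 50.6), 2 (72.4 against 56.4) and 5 (27.9 against 22.8). In the other mutants and in all controls *Cnot6* was above *Cnot6l* in counts too.

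*Cnot6* encodes the CCR4-type nuclease CNOT6. It is annotated on chr11:49671503-49712723 (GRCm38, minus strand), and none of its 75-base words, the length of a read, occurs in a transcript of another gene. It is also the one gene of the set that stands on the study's list of genes with a PRDM10 peak in mouse embryonic stem cells. Of the other decay pathway genes examined, *Noct*, *Celf1* and *Dcps* stand on that list too, and none of them was called between genotypes (*Dcps* was too low to be tested). Membership alone was read from the list, and how often genes at large stand on it was not analysed here. The study assigned a peak to a gene if it lay in the gene body or within set distances before or after it. Membership therefore does not place a peak at the promoter, and the position of the *Cnot6* peak was not analysed. PRDM10 is a zinc finger transcription factor, so the sequence before the start of *Cnot6* was compared with the oligonucleotides used in the study's gel-shift assay. Capitals in the probes mark the 8 bases that differ between the intact (WT) and the mutated (MUT) form. Capitals in the *Cnot6* promoter (RefSeq, GRCm38.p6, chr11:49712673-49712972, minus strand, 250 bases before to 50 after the start) mark the longest run that it shares with the WT probe.
WT probe: ctggcacagTGGTcgcGCCCggcccgcc
MUT probe: ctggcacagCAACcgcATTTggcccgcc
Cnot6 promoter: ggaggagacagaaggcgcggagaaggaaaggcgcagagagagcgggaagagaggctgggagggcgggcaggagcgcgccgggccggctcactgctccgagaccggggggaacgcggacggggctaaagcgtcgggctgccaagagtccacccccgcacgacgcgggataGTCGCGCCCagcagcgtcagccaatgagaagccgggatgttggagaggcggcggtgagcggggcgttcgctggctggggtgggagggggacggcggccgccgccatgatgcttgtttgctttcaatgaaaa

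The 8 changed bases give the pattern TGGTNNNGCCC. On either strand it was found in 1.45% of the 32851 promoter windows of RefSeq genes, and in none of the windows of the 7 genes of the set that have one (the table has no entry for *Cnot1*, *Cnot7* and *Zfp36l2*). A looser form, TGGTNNNNNCC, which includes every match to the first, occurred in 13.8% of windows and among the set only in *Cnot8*. The closest place in the *Cnot6* promoter differed from the first pattern at 1 base, G2A, counted from the 5′ end of the pattern, and 24.6% of all windows come as close. In the set, *Cnot2*, which was not called between genotypes, also has such a place. The shared run GTCGCGCCC starts 81 bases before the annotated start of *Cnot6* and was present in 0.213% of windows. It was singled out after the sequence had been seen. These are matches of letters, with no measurement of binding, and no relation between the run and expression was tested.

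The normalised read counts of *Cnot6*, which are expected counts divided by the size factor of the library, were 102, 87.5 and 55.4 in the batch 1 controls and 45.1 and 22.8 in the batch 1 mutants. In batch 2 they were 134, 162 and 147 in controls and 50.6, 56.4 and 86.8 in mutants. Within each batch the lowest control was above the highest mutant. With the batches pooled the groups overlapped, since mutant replicates 2 and 3, at 56.4 and 86.8, stood above control replicate 6 at 55.4.

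The log2 fold change of *Cnot6* in mutants was -1.22 ± 0.29 (SE), which is 0.428 of the control level with a 95% interval of 0.289 to 0.634. DESeq2, fitted with batch and group, gave an adjusted p of 0.00513. *Cnot6* was the only gene of the 9 tested that passed, and the share of all tested genes called lower in mutants was 0.881%. A separation of mutants below controls in both batches was likewise found for 1 of 9, against 1.41% of all tested genes. The call changed with the test. With edgeR's quasi-likelihood test the log2 fold change was -1.21 and the adjusted p 0.173, and none of the 9 passed (2 had an unadjusted p under 0.05), against 0.257% of all genes called lower by that test. Leaving out mutant replicate 5 moved the DESeq2 adjusted p to 0.0546, and over all 19 alternatives it ranged from 0.00214 to 0.570, with a negative log2 fold change in each.

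The read counts and the length-corrected values of *Cnot6* moved by different amounts. In TPM the batch 2 controls were at 7.40, 6.09 and 4.94 and the batch 2 mutants at 1.81, 3.24 and 3.06. In batch 1 the controls were at 5.13, 3.57 and 2.78 and the mutants at 2.75 and 2.61, so that the lowest control and the highest mutant differed by very little. The effective length of *Cnot6* varied between embryos, from 3650 to 5662 bases in controls and from 1995 to 5662 in mutants, with the shortest in mutant replicate 5. When effective length was entered as an offset, the DESeq2 log2 fold change was -0.88 with an adjusted p of 0.0942. On log2(TPM + 1), which understates changes of genes at low levels, limma gave -0.69 with an adjusted p of 0.458. The levels of single isoforms were not analysed here.

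**Figure D2:**
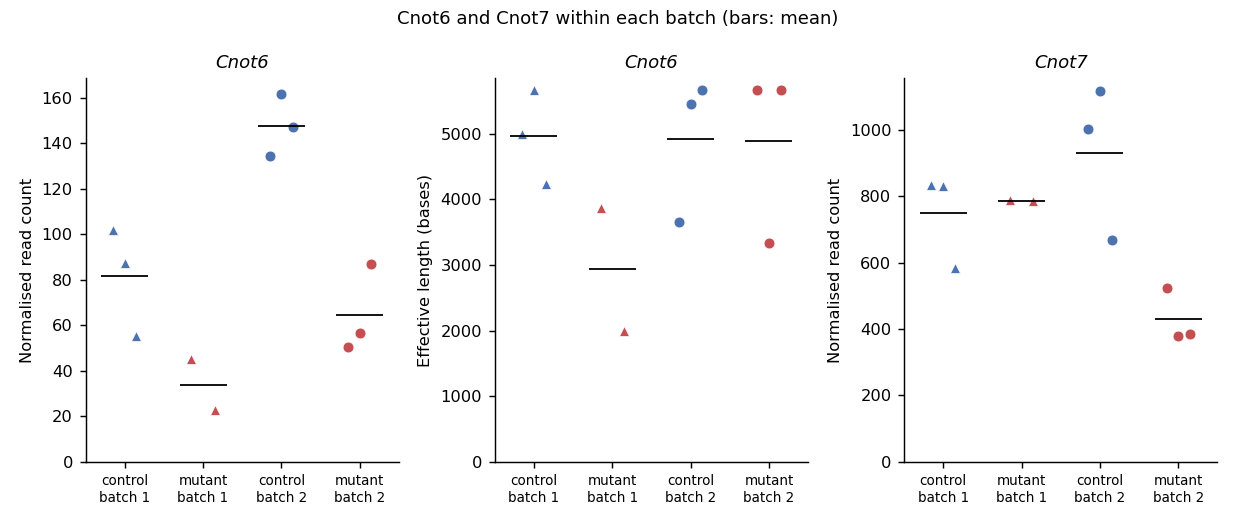
Normalised read count of *Cnot6*, effective length of *Cnot6* in bases and normalised read count of *Cnot7*, for each embryo by batch and group, with the mean as a bar. *Cnot6* counts are lower in the mutants of both batches, whereas *Cnot7* counts are lower in the mutants of batch 2 alone.

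*Cnot7* encodes the CAF1-type nuclease CNOT7 and is annotated on chr8:40492540-40515847 (minus strand). Its normalised read counts in batch 2 were 1003, 1119 and 669 in controls and 525, 380 and 384 in mutants, and the groups did not overlap. In batch 1 the controls had 836, 832 and 584 and the mutants 789 and 786, which is within the range of the controls. Over both batches the log2 fold change was -0.58 ± 0.24 (SE) and did not pass (DESeq2 adjusted p = 0.284). In batch 2 alone it was -1.11 ± 0.29 with an adjusted p of 0.0414, and in batch 1 alone it was 0.08 ± 0.26 with an adjusted p of 1.00. The difference between the batches was tested as an interaction. It was 1.18 ± 0.39 on the log2 scale, with an unadjusted p of 0.00238 and an adjusted p of 0.989, and was therefore not called.

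No gene of the set passed the interaction test in DESeq2, for which 0.0573% of all genes were called, and none passed in edgeR. *Cnot7* alone had an unadjusted p under 0.05, in both tools, against 451 of 10472 genes in DESeq2 and 339 of 10489 in edgeR. In batch 2, groups without overlap and with mutants lower were found for 3 of the 9 tested genes, *Cnot6*, *Cnot7* and *Cnot8*, against 6.36% of all tested genes.

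*Cnot8*, the paralog of *Cnot7*, is annotated on chr11:58104153-58118594 (plus strand). The batch 2 controls had normalised read counts of 1519, 1506 and 1546, and the batch 2 mutants had 1389, 1419 and 1310. In batch 1 the controls had 1640, 2128 and 1878 and the mutants 1726 and 1329. The batch 2 groups were narrow and apart, while those of batch 1 overlapped. The log2 fold change over both batches was -0.22 ± 0.13 (SE) with a 95% interval of -0.47 to 0.04, and it did not pass (DESeq2 adjusted p = 0.539).

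*Cnot6l*, the paralog of *Cnot6*, has its gene on chr5:96070333-96164171 (minus strand). Its normalised read counts were 16.5 at the lowest, 41.5 at the median and 106 at the highest in controls, and 29.7, 27.9, 70.9, 72.4 and 58.5 in the mutants. All mutants fell inside the range of the controls. The log2 fold change was 0.06 ± 0.45 (SE), and the 95% interval of -0.82 to 0.93 leaves room for a change of either sign.

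**Figure D3:**
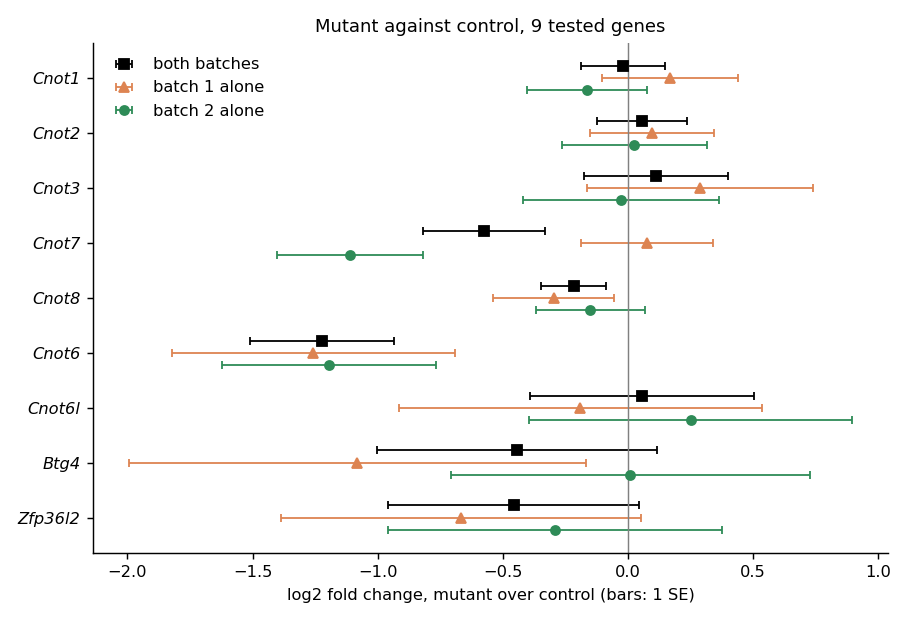
Log2 fold change of mutants over controls for the 9 tested genes, from DESeq2 with both batches (squares) and for batch 1 (triangles) and batch 2 (circles) alone, with bars of 1 SE. *Cnot6* is at -1.22, -1.26 and -1.20 in these fits, while *Cnot7* is at -0.58, 0.08 and -1.11.

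The balance between paralogs was compared between groups as the log2 ratio of TPM + 0.1. For *Cnot6l* over *Cnot6* it was -1.24 ± 0.88 in controls (SD, n = 6) and -0.19 ± 0.33 in mutants (SD, n = 5). The difference of 1.05 did not pass an exact permutation test with labels exchanged within batches (200 splits, two-sided, p = 0.06, adjusted p = 0.12 over 2 pairs), for which the smallest possible p is 0.005. It was 0.46 within batch 1 and 1.57 within batch 2. With normalised counts in place of TPM the difference was 1.56, and the exact permutation test gave an adjusted p of 0.02. For *Cnot8* over *Cnot7* the ratio was 1.15 ± 0.52 in controls and 1.44 ± 0.56 in mutants, with an adjusted p of 0.42 by the same exact permutation test. Here the batches went in opposite directions, with mutants minus controls at -0.60 in batch 1 and 1.00 in batch 2.

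**Figure D4:**
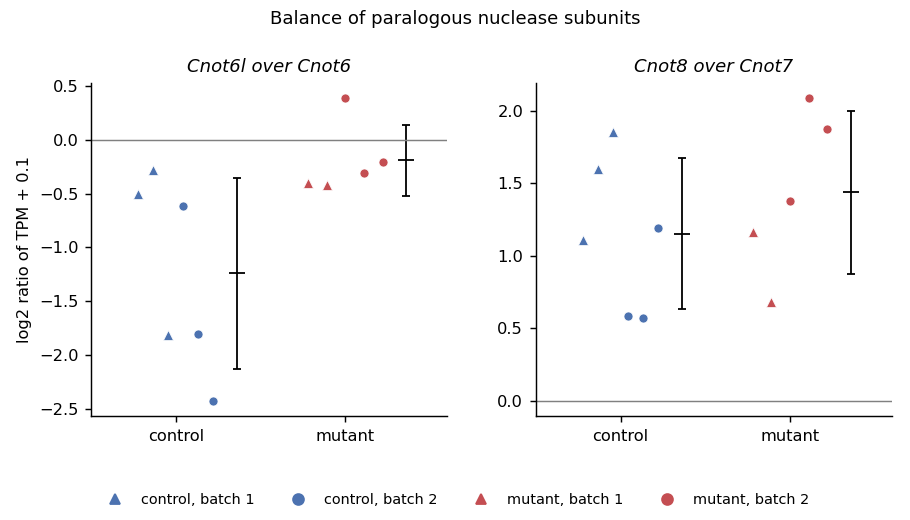
Log2 ratio of TPM + 0.1 for *Cnot6l* over *Cnot6* and for *Cnot8* over *Cnot7* in each embryo (triangles batch 1, circles batch 2), with the mean and 1 SD of each group and a line at equal levels. *Cnot8* exceeds *Cnot7* in every embryo, and mutant replicate 1 is the one embryo with *Cnot6l* above *Cnot6*.

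For the scaffold and its partners no difference between the groups was called. *Cnot1* (chr8:95719451-95807464, minus strand) had normalised read counts of 652, 1354 and 2041 at the lowest, median and highest in controls, and of 1018, 746, 1919, 1816 and 1346 in the mutants. *Cnot2* (chr10:116485161-116581511, minus strand) had 592, 816 and 946 in controls and 904, 868, 982, 765 and 599 in the mutants. *Cnot3* (chr7:3645268-3661109, plus strand) had 74.4, 145 and 239 in controls and 178, 217, 140, 152 and 99.5 in the mutants. The groups overlapped for all 3 genes. The log2 fold changes were -0.02 ± 0.17, 0.06 ± 0.18 and 0.11 ± 0.29 (SE), and no DESeq2 adjusted p was below 0.940. The 95% interval of *Cnot1* reached from 0.784 to 1.24 of the control level.

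The 3 adaptors were scarce. *Btg4* (chr9:51060901-51119875, plus strand) had normalised read counts of 9.84 at the lowest, 38.0 at the median and 71.2 at the highest in controls, and of 19.5, 9.32, 11.3, 70.1 and 67.3 in the mutants. Mutants thus fell at both ends of the range, and in batch 2 they held both the lowest and the second highest value. The log2 fold change was -0.44 ± 0.56 (SE; DESeq2 adjusted p = 0.848), at -1.08 in batch 1 alone and 0.01 in batch 2 alone.

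*Zfp36l2* (chr17:84183931-84187947, minus strand) had 20.7, 48.0 and 203 normalised reads at the lowest, median and highest in controls, and 27.7, 20.7, 175, 71.7 and 28.3 in the mutants. Both groups spanned a wide range and overlapped, and the highest value of each was in batch 2. The log2 fold change between groups was -0.46 ± 0.50 (SE), with an adjusted p of 0.813.

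*Pabpn1l* (chr8:122619471-122622739, minus strand) was counted with 2 and 5 reads in 2 of the batch 2 controls and with 2 and 6 reads in 2 of the batch 1 controls. The other 2 controls and all 5 mutants had 0 reads. A count of 0 allows up to 3 reads, which corresponds to 0.363 to 0.555 CPM in the mutant libraries, and this limit covers counting error only. The gene was too low to be tested, and no fold change is given.

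In none of the 9 tested genes was a rise called in mutants, against 0.565% of all tested genes, and the 2 genes with an unadjusted p under 0.05, *Cnot6* and *Cnot7*, were both lower. Over all genes 1248 of 10448 had such a p in DESeq2, and 995 of 10489 in edgeR. The log2 fold change was negative for 6 genes, and the median over the 9 was -0.22, compared with 0.00 over all tested genes. No sign changed with edgeR or with TMM factors. The labels name separate embryos but not litters.

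Some of the genes also differed between the batches. *Cnot1*, *Cnot6* and *Zfp36l2* were lower in batch 1 than in batch 2, by log2 fold changes of -1.12 ± 0.17, -0.88 ± 0.29 and -1.71 ± 0.50 (SE), with DESeq2 adjusted p of 2.69e-09, 0.0136 and 0.00523. These 3 of 9 compare with 13.8% of all genes called lower in batch 1. None of the 9 was called higher there, against 14.0% of all genes. The same 3 genes passed in edgeR, which called 1260 of all 10489 tested genes lower in batch 1. For *Cnot1* the batches did not overlap in counts, with 652 to 1018 normalised reads in batch 1 and 1346 to 2041 in batch 2. In TPM they overlapped, at 61.7 to 101 in batch 1 and 82.6 to 160 in batch 2. The effective length of *Cnot1* was 1667 to 2655 bases in batch 1 and 2277 to 4235 bases in batch 2. For *Cnot6* the call was lost without mutant replicate 5 (adjusted p = 0.0706). The batches were isolated and processed separately and differ in PCR cycles, and the parts of these cannot be told apart.

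*Zfp36l2* is widely expressed outside the embryo, and its highest embryos were in the batch that held transcripts of other cells. *Lyz2*, a macrophage and granulocyte gene, was at 15.7 TPM in control replicate 2 and 40.9 TPM in mutant replicate 1, where *Zfp36l2* was at 12.1 and 10.3 TPM. In control replicate 1, with the highest *Lyz2* level of 121 TPM, *Zfp36l2* was at 6.08 TPM, and in mutant replicate 2, with *Lyz2* at 37.0 TPM, it was at 3.98 TPM. In control replicate 3 and mutant replicate 3, with *Lyz2* at 9.77 and 13.5 TPM, *Zfp36l2* was at 1.81 and 1.63 TPM. In batch 1 *Lyz2* did not exceed 0.59 TPM. *Ptprc*, the pan-leukocyte gene, was at 0 in all 5 embryos of batch 1 and in 3 of the 6 of batch 2, and it was at 2.90 TPM in control replicate 1, 0.23 TPM in control replicate 2 and 0.07 TPM in mutant replicate 1. The part of these transcripts in the batch difference of *Zfp36l2* was not tested. Without control replicate 1 the batch difference of *Zfp36l2* was -1.77 (DESeq2 adjusted p = 0.00801), and the genotype difference of *Cnot6* was -1.26 (adjusted p = 0.0137).

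Other genes of the decay pathway, 79 in 6 lists, were examined alongside. Of the 67 tested, 1 was higher in mutants and none was lower, against 0.565% and 0.881% of all tested genes. An unadjusted p under 0.05 in DESeq2 was found for 5 of the 67, against 1248 of all 10448 tested genes. None passed in edgeR, where 3 had an unadjusted p under 0.05. No call was made among the 4 tested remaining CCR4-NOT subunits (median log2 fold change 0.03), the 8 other deadenylases (0.08), the 16 other adaptors (0.08), the 16 decapping factors (-0.09) and the 18 factors of tailing and 3′ to 5′ decay (-0.03). The 5 tested poly(A)-binding proteins had a median of 0.00. The most abundant of each list were *Cnot10* at 32.6, *Pan3* at 68.6, *Ythdf2* at 129, *Lsm5* at 278 and *Exosc7* at 313 TPM on average over the 11 embryos, and *Pabpc1*, at 413 TPM, led the poly(A)-binding proteins.

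*Pabpc4*, a cytoplasmic poly(A)-binding protein, was the gene that passed. It was at 271, 327 and 284 TPM in the batch 2 controls and at 386, 434 and 423 TPM in the batch 2 mutants. In batch 1 it was at 267, 201 and 243 TPM in controls and at 329 and 300 TPM in mutants. In normalised counts it was 1 of 2 pathway genes, with *Tnrc6c*, whose mutants lay above all controls of their batch in both batches, against 1.33% of all tested genes. Its log2 fold change was 0.42 ± 0.11 (SE; DESeq2 adjusted p = 0.0295). The edgeR adjusted p was 0.241, and the DESeq2 call was lost in 9 of 11 fits that left out 1 embryo each. Over those 11 fits the log2 fold change was 0.37 to 0.44.

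**Figure D5:**
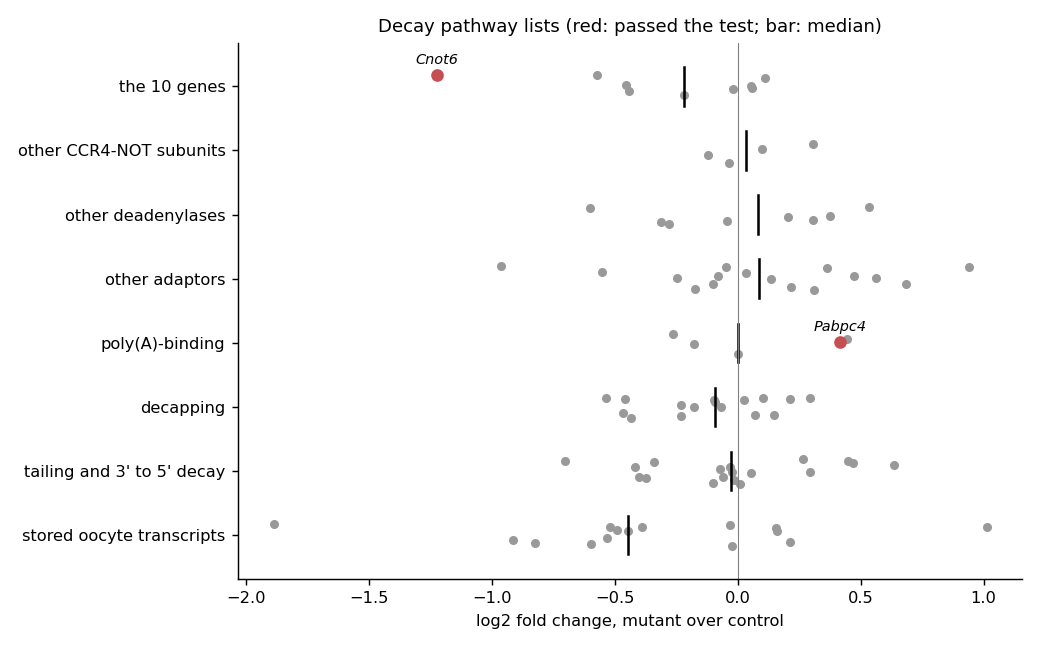
Log2 fold change of mutants over controls (DESeq2, both batches) for the tested genes of the set, of the 6 pathway lists and of the stored transcripts, with called genes in red and named, and the median as a bar. *Cnot6* at -1.22 and *Pabpc4* at 0.42 are the called genes among these, and the medians lie between -0.45 and 0.08.

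Transcripts stored in the oocyte, the substrates of this machinery, were examined as a list of 20 genes. The libraries were primed with oligo-dT, so a shorter poly(A) tail and a lower level cannot be told apart in these values. Their summed level was 137 ± 43.3 TPM in controls (SD, n = 6) and 116 ± 11.6 TPM in mutants (SD, n = 5), with *Zp3*, a zona pellucida gene, the most abundant at 36.6 TPM. Of 15 tested, none was called in DESeq2 or edgeR (2 with an unadjusted p under 0.05 in each, against 1248 of 10448 genes in DESeq2 and 995 of 10489 in edgeR), and the median log2 fold change was -0.45. Across the 11 embryos the log2 level of *Btg4* had a Pearson r of 0.43 with that of the stored transcripts (permutation p = 0.184, adjusted over 4 relations 0.581; Spearman rho 0.45, p = 0.164, adjusted 0.654). For *Zfp36l2* r was 0.28 (p = 0.408, permutation; rho 0.17, p = 0.613), for *Pabpn1l* -0.06 (p = 0.879, permutation; rho 0.05, p = 0.889) and for *Cnot6l* 0.26 (p = 0.435, permutation; rho -0.03, p = 0.947), with adjusted p of 0.581 to 0.879 for r and of 0.947 for each of these rho. No relation passed. Centred within batches, r was 0.47, 0.32, -0.06 and 0.26 for the same genes, and in the 6 embryos of batch 2 alone it was 0.44, 0.52, -0.30 and 0.74. No value was computed within batch 1, which held 5 embryos, since correlations were limited to 6 or more. Without the 2 embryos farthest from the median, r for *Cnot6l* was -0.82 (exact permutation test, adjusted p = 0.0322) and rho was -0.73 (exact permutation test, adjusted p = 0.124), so its direction rested on those embryos.

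How reads were assigned limits some of these genes. *Btg4*, *Cnot6*, *Cnot6l* and *Pabpn1l* shared no 75-base word with another annotated gene and had whole counts in all 11 embryos, and *Cnot2* and *Zfp36l2* also had whole counts throughout. *Cnot3* shared 10.5% of its words with other genes, among them *Gm9207* and its neighbour *Leng1*, which overlaps it on the opposite strand. *Cnot8* shared 5.90% with *Gm18860*, and *Cnot1* shared 4.14%, mostly with *Gm6158*. *Cnot7* shared 2.04% with *Zdhhc2* on the opposite strand. The libraries do not keep strand, so reads from such overlaps cannot be told apart. The posterior SD that the authors deposited for each count was at most 3.85% of the count for *Cnot3*, 1.35% for *Cnot1*, 0.338% for *Cnot7* and 0.137% for *Cnot8*.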

How the data were processed

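Reads were single-end. Per the labels and the study's methods, the authors mapped them to GRCm38.p6 with STAR (2.6.0c) and quantified genes with RSEM against GENCODE vM18. For each embryo they deposited an expected count, TPM, effective length and a posterior SD of the count. The deposited comparison table (log2 fold changes and p-values) was not used. Here expected counts were rounded and tested with DESeq2 (1.42.0, R 4.3.3; batch and group, unshrunken fold changes, Wald test, Benjamini-Hochberg over all genes). A call needed an adjusted p under 0.05 and a mean of normalised counts over 10. Alternatives used edgeR (4.0.16), limma (3.58.1) on log2(TPM + 1) and the settings named under processing. Depth was 3534735 to 8265840 counts per library, without molecular identifiers. The members and all lists were chosen with earlier results of these data known. Named genes were the 10 members, list genes that passed, the most abundant gene of each list and *Prdm10*; *Tnrc6c*, *Noct*, *Celf1*, *Dcps* and the marker genes were named after their values were seen. The fits across genes were also run on simulated counts. Symbols and positions came from GENCODE vM21 of the same build, and all list symbols matched.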

Additional observations from a re-analysis of the deposited data

Results flagged for a closer look

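In a group of 4 to 10 embryos, a value was looked at again when its gap to the nearest other value was a large part of the group's range (Dixon's 95% limit). Of 42 sets of values checked, 4 stood out, and chance gives about 1 in 20. *Cnot6l* had 106 normalised reads in control replicate 1, the control with the highest blood marker sum, and the other controls had at most 46.9. *Cnot8* stood at 209 TPM and 1726 normalised reads in mutant replicate 4, above the other mutants in both units. The sets checked pooled both batches, and this embryo was of batch 1, where the controls had 211, 278 and 210 TPM. The log2 ratio of *Cnot6l* over *Cnot6* was 0.38 in mutant replicate 1 and below 0 in the other 4 mutants. For none of the 9 tested genes did the effect of genotype differ between the batches at an adjusted p under 0.05 (DESeq2 and edgeR).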

How the results depend on the processing

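The 1 member called between genotypes, *Cnot6*, passed with TMM factors and with no filter on the mean count. The count of members was 0 with a minimum mean count of 100 (where *Cnot6* was not tested), with edgeR, with limma, without a batch term, in batch 1 alone and with the effective-length offset. It was 0 to 1 when 1 embryo was left out, and 0 only without mutant replicate 5. In batch 2 alone the count was also 1, but the gene was *Cnot7*. Among the pathway lists the count of 1 became 0 with edgeR, limma, no batch term and either batch alone, and was 0 to 1 when 1 embryo was left out. Over all genes 151 were called, 35 with edgeR, 22 with limma, 51 without a batch term, 78 in batch 1 and 48 in batch 2, and 90 (without mutant replicate 2) to 265 (without control replicate 2) when 1 embryo was left out. It was 91 without mutant replicate 5. The interaction count of 6 was 0 with edgeR and 0 to 22 when 1 embryo was left out. The batch count of 3 members ranged from 2 (without mutant replicate 5) to 5 (without control replicate 6). The cause of these changes was not tested.

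Small differences changed sign. On the log2 scale these were *Cnot7* at 0.076 in batch 1, *Btg4* at 0.0093 in batch 2, *Cnot3* at -0.027 in batch 2, and *Cnot6l* at -0.19 in batch 1 and -0.037 with the offset. *Cnot1* was at 0.016 with limma, 0.028 without a batch term, 0.17 in batch 1 and 0.026 with the offset. With 1 embryo left out, *Cnot2* ranged from -0.036 to 0.14, *Cnot6l* from -0.20 to 0.46, *Cnot3* from -0.044 to 0.25 and *Cnot1* from -0.14 to 0.072. The interaction then ranged from -0.10 to 0.26 for *Cnot2*, from -0.64 to 0.34 for *Cnot6*, from -0.35 to 0.027 for *Cnot8*, from -1.33 to 0.00056 for *Cnot6l*, from -0.049 to 0.70 for *Cnot3* and from -1.09 to 0.49 for *Zfp36l2*.

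The difference in the *Cnot6l* over *Cnot6* ratio was 1.56 with normalised counts, which passed, and 0.81 to 1.24 with 1 embryo left out, where it passed only without control replicate 5. Without the 2 farthest embryos, r with the stored transcripts was -0.0076 for *Zfp36l2*, 0.66 for *Pabpn1l* and -0.82 for *Cnot6l*, and it was 0.052 for *Pabpn1l* with normalised counts. No paired analysis was possible because the labels give no replicate numbers, and those used here only name embryos. Where a batch 1 mutant was left out, the remaining one was assumed to vary like the other groups. Depth limits *Pabpn1l* most, with 6 reads at the highest.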
